A study of Cucumis sativus with 6 samples.

Results

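Described here are 95 of the 17073 gene models listed for cucumber (Cucumis sativus) fruit, chosen because they were read well and at least 2-fold more in line 32X than in line GFC. A gene was taken when 4 conditions held. Its mean log2(RPM + 1) over the 3 libraries of 32X lay at least 1 above that over the 3 libraries of GFC. Its lowest 32X value lay above its highest GFC value, its mean in 32X was at least 40 RPM, and its mean over all 6 libraries was under 800 RPM. RPM is reads per 1000000 reads counted in the listed genes. It is not corrected for gene length, and a high RPM means many reads and not necessarily many transcripts.

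Fruits were collected on the day the flower opens from the near-isogenic lines 32X and GFC, which are northern China type cucumbers with short, light green fruits, grown in a greenhouse in Beijing. Such lines are made by repeated backcrossing, so they are alike over most of the genome and differ in the pieces that came from the donor parent. Each line gave 3 biological replicates, and the labels do not say whether these were separate plants or pools. The genotype field reads inbred line 1461 for all 6 samples, so the line was taken from the sample title. In RNA from whole fruit, fewer cells of a type and less RNA per cell cannot be told apart.

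The series concerns the number of carpels, the fused units that form the cucumber fruit. In the flower, the CLAVATA3 peptide signal limits the transcription factor WUSCHEL, which maintains stem cells, and a larger floral meristem can make more carpels. FRUITFULL-type MADS-box factors act in fruit development, and auxin patterns the organs of the flower. The deposited table pairs its IDs with no gene names, and 0 of the 23999 rows of the RefSeq table for the Cucumber_9930_V3 assembly carry such an ID. Genes are therefore given by ID, no role is assigned to any of them, and neither the tissue label nor these pathways could be checked against marker genes. In these IDs the chromosome is written after Csa (UN where the sequence is unplaced), and serial numbers go up along it.

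The libraries held 15320600 to 18089654 reads, recovered from the RPM steps. Of all 17073 genes, 377 met the fold condition, 362 also did not overlap between the lines, 98 of these reached 40 RPM in 32X, and 95 were under 800 RPM over all libraries. A difference of at least 1 with no overlap was thus met by 2.12% of all genes, and the whole rule by 1.53% of the 6210 genes within its limits of level. Since these conditions chose the genes, the direction and size of the line difference below are descriptions and were not tested.

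Most of the 95 genes lay close above the fold limit. Their median log2 difference was 1.23, with an interquartile range of 1.11 to 1.47, while over the 6210 genes within the limits of level the median was -0.02. The difference was at least 2 for 9 genes, from 1.5 to 2 for 13 and under 1.5 for 73. The median mean was 75.9 RPM in 32X and 28.4 RPM in GFC, and the median ratio of the means was 2.43.

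**Figure D1:**
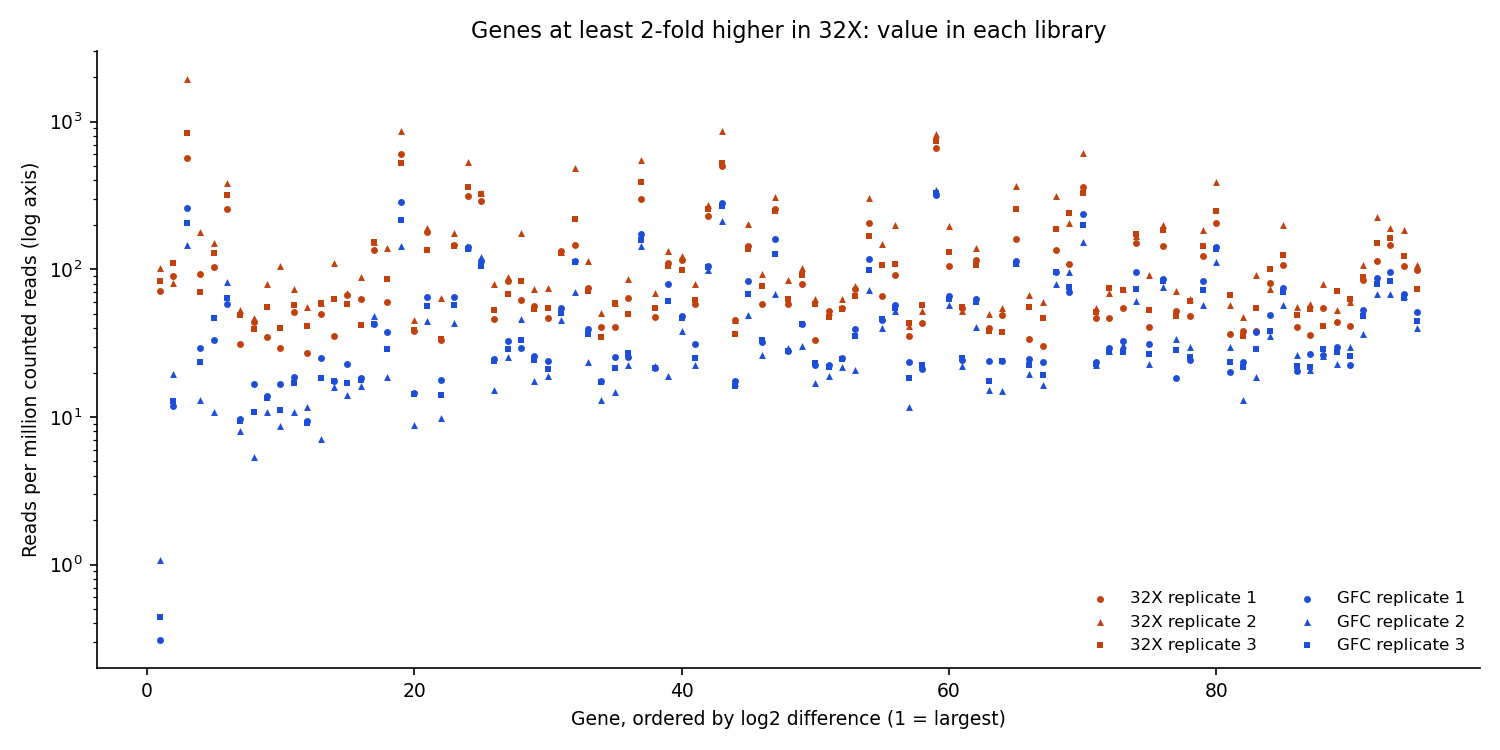
RPM (log axis) of each of the 95 genes in the 6 libraries, with genes ordered from the largest to the smallest log2 difference, colour for the line and marker shape for the replicate. In every gene the 3 values of 32X lie above the 3 of GFC, as the rule requires, and the first gene stands apart with GFC values near 1 RPM or below.

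The gene with the largest difference had few reads in GFC. Csa5G523090 had 70.8, 102 and 84.0 RPM in 32X replicates 1 to 3 and 0.310, 1.08 and 0.442 RPM in GFC replicates 1 to 3. Behind these values stood 1154, 1562 and 1424 reads in 32X and 5, 19 and 8 reads in GFC. The log2 difference was 5.76 ± 0.19 (SE from limma, 3 libraries per line), and the lowest 32X value was 65.8 times the highest GFC value. With so few GFC reads its size depended on the scale: the log2 difference was 7.05 with a pseudocount of 0.1, 4.001 with 5 and 7.10 in edgeR on the recovered reads, and the ratio of mean RPM was 140.4. The listed genes before and after it in ID order, Csa5G523080 and Csa5G523110, had log2 differences of -1.10 ± 0.18 and 0.82 ± 0.15. Csa5G523080 was itself read little, at means of 0.743 RPM in 32X and 2.74 RPM in GFC, where a pseudocount of 1 weighs on the size.

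The other 94 genes were all read clearly in both lines, with at least 95 reads in every GFC library. Csa2G006170 came next, at 90.3, 81.3 and 109.8 RPM in 32X against 11.8, 19.5 and 12.8 RPM in GFC, a log2 difference of 2.61 ± 0.18 (SE). Its lowest 32X value was 4.16 times its highest GFC value, the widest gap between the lines after that of Csa5G523090. Csa3G664560 had 258, 383 and 317 RPM in 32X and 58.4, 82.2 and 64.3 RPM in GFC, a difference of 2.21 ± 0.16. For both genes the libraries of a line lay closer to each other than to those of the other line.

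Others among the largest differences rested on libraries that spread widely. Csa6G518000 had 565, 1951 and 835 RPM in 32X and 259, 147 and 205 RPM in GFC, a log2 difference of 2.29 ± 0.38 (SE). Csa4G496760 had 93.0, 180.0 and 70.5 RPM in 32X and 29.3, 13.1 and 23.7 RPM in GFC, a difference of 2.28 ± 0.34. Csa6G501230 had 29.4, 105 and 40.1 RPM in 32X and 16.7, 8.66 and 11.2 RPM in GFC, a difference of 1.997 ± 0.40. In all 3 genes the second 32X library was the highest of all 6 and the second GFC library the lowest. For Csa6G324830 the wide line was GFC, at 33.3, 10.8 and 46.7 RPM against 103, 151 and 128 RPM in 32X, a difference of 2.24 ± 0.41.

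Csa6G504720, Csa5G160210, Csa4G638320, Csa7G420890 and Csa1G278500 completed the 12 largest differences, with log2 differences from 2.15 down to 1.89. Csa6G504720 was even in GFC, at 9.73, 7.98 and 9.45 RPM, and had 31.4, 53.2 and 49.3 RPM in 32X. Csa5G160210 was even in 32X, at 43.9, 47.1 and 39.3 RPM, and uneven in GFC, at 16.8, 5.38 and 10.8 RPM. Csa4G638320 had 34.9, 79.3 and 55.2 RPM in 32X and 13.9, 10.8 and 13.4 RPM in GFC. The spread that sets the error of a difference therefore came from 32X in some genes and from GFC in others.

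**Figure D2:**
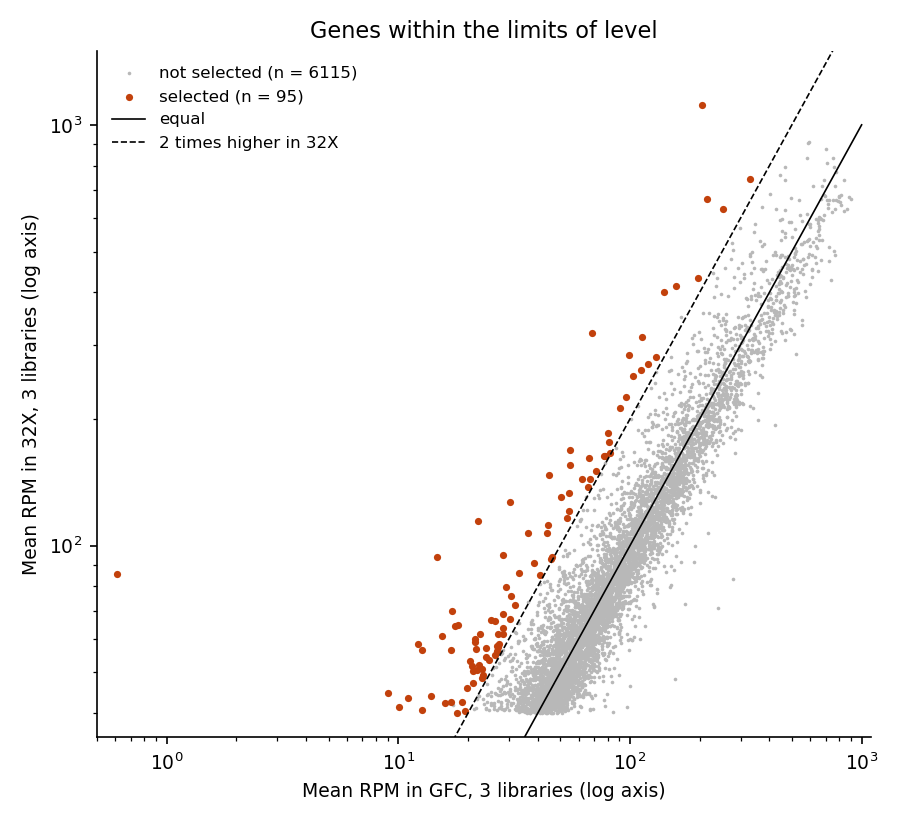
Mean RPM over the 3 libraries of 32X against that of GFC (both log axes) for the 6210 genes within the limits of level, with the 95 selected genes in orange, the line of equal means and the line of means 2 times higher in 32X. The selected genes form a band just above the 2-times line over most of the range of level, and 1 of them lies far to the left at a GFC mean of 0.609 RPM.

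By reads in 32X the 95 genes ran from 40.02 to 1117 RPM. There were 34 genes under 60 RPM, 23 from 60 to 100, 22 from 100 to 200, 9 from 200 to 400 and 7 from 400 up. The median log2 difference in these 5 bands ran between 1.19 and 1.34, and across the 95 genes the difference and the 32X mean had a Spearman correlation of 0.04. This is across genes, which share the same 6 libraries, and is given as a description. Within the limits of the rule, which cut both quantities, size of difference and number of reads followed no common order among the 95 genes. Nothing is read from this about other genes.

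The gene with the most reads was Csa6G518000, described above. Csa2G374630 came next and was even within each line, at 666, 821 and 742 RPM in 32X and 318, 346 and 327 RPM in GFC, a log2 difference of 1.16 ± 0.10 (SE). Csa7G067370 had 603, 871 and 525 RPM in 32X and 284, 144 and 217 RPM in GFC, a difference of 1.65 ± 0.24. Csa7G056500, Csa7G222880 and Csa1G168880 completed the 6 genes with the most reads, with 32X means of 630, 433 and 414 RPM and differences of 1.28, 1.11 and 1.34. In each of these 3 genes the second library was the highest of 32X and the lowest of GFC.

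Together the 95 genes took 1.07%, 1.73% and 1.22% of the reads in 32X replicates 1 to 3 and 0.557%, 0.433% and 0.510% in GFC replicates 1 to 3. The mean share of 32X was 1.34% ± 0.35 and that of GFC 0.5001% ± 0.063 (SD, n = 3). Without Csa6G518000 the means were 1.23% ± 0.27 and 0.480% ± 0.057. The highest share in 32X and the lowest share in GFC both fell in the second library.

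The lines were separated by very different margins. The lowest 32X value was at least 2 times the highest GFC value for 31 genes and at least 1.5 times for 69, with a median of 1.73. Over the 6210 genes within the limits of level the counts were 31 and 95, with a median of 0.88. Over all 17073 genes they were 165 and 472. The fold and overlap conditions act on these same values, so the margins are a description. Among the 95 genes the smallest margin was that of Csa6G091870. There 32X had 38.2, 91.8 and 54.4 RPM and GFC 37.9, 18.6 and 28.8 RPM, so the first libraries of both lines were nearly level. Its log2 difference was 1.05 ± 0.31 (SE). The next smallest margins were 1.13-fold for Csa5G182730 and 1.21-fold for Csa5G148780.

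At the other end, some genes hardly varied within a line. Csa3G027730 had 133, 130.2 and 129 RPM in 32X and 54.8, 45.5 and 50.7 RPM in GFC, a log2 difference of 1.36 ± 0.08 (SE). CsaUNG012590, on unplaced sequence, had 54.9, 52.2 and 55.9 RPM in 32X and 24.2, 22.3 and 25.3 RPM in GFC, a difference of 1.15 ± 0.08. These had the 2 narrowest relative spreads among the 32X libraries, while Csa6G501230 and Csa6G518000 had the widest.

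The limits of the rule cut through a continuous range of values. Just inside the fold limit lay Csa2G287080 and Csa1G065970, at log2 differences of 1.003 and 1.007. Just outside lay Csa5G549170 and Csa3G182780, both at 0.99, the latter with 51.9, 55.8 and 54.5 RPM in 32X and 27.3, 24.8 and 28.0 RPM in GFC. At the level limit, Csa2G356090 and Csa6G176940 were kept with 32X means of 40.02 and 40.5 RPM, and Csa4G094530 and Csa4G286950 were left out with 39.9 and 38.7 RPM. Csa4G094530 had a difference of 1.78, larger than that of most genes kept. The level limit left out 264 genes that met the other conditions, and the overlap condition left out 0. The upper limit on the mean left out 3 genes, the nearest being Csa3G026660 and Csa1G062960 at 832 and 872 RPM.

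The libraries within a line were not interchangeable for these genes. The second library was the highest of 32X in 80 of the 95 genes (84.2%), and the first was the lowest in 62 (65.3%). In GFC the second library was the lowest in 72 genes (75.8%) and the first the highest in 70 (73.7%). Among the 6115 other genes within the limits of level, the first library was the lowest of 32X in 31.3% and the highest of GFC in 45.5%. In these genes the second 32X library was the highest in 41.4% and the second GFC library the lowest in 52.0%. Both held at once for 64 of the 95 genes (67.4%) and for 28.5% of the others.

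**Figure D3:**
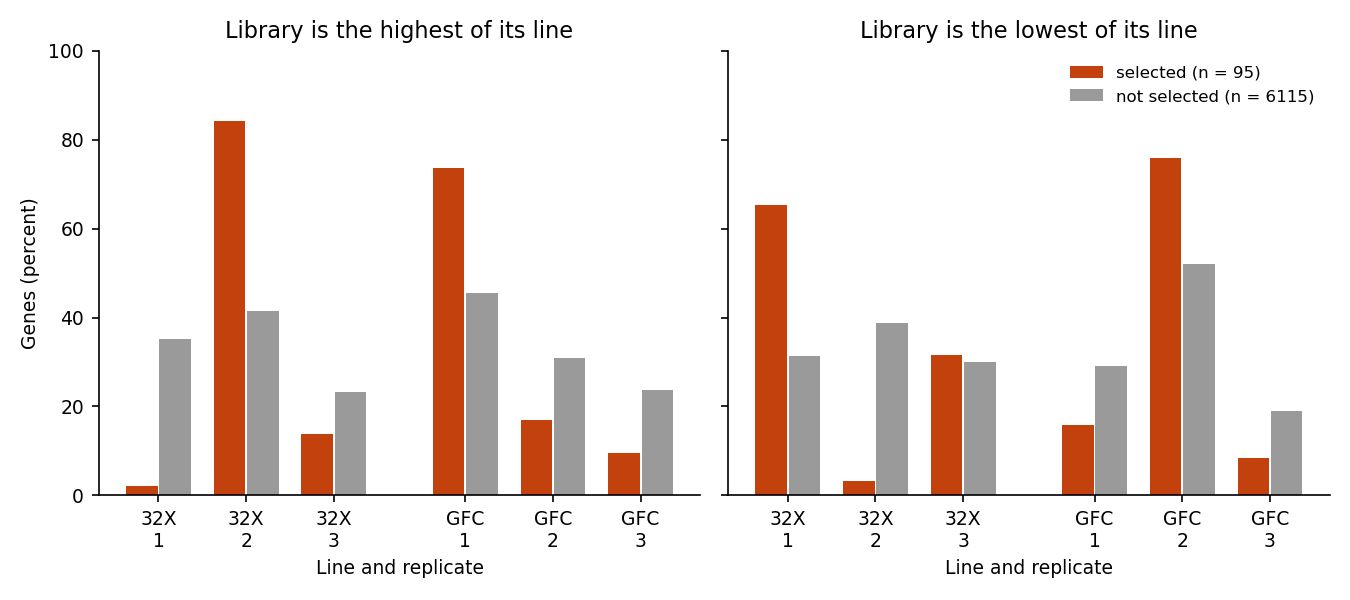
Share of genes, in percent, in which each library is the highest (left) or the lowest (right) of its line, for the 95 selected genes and the 6115 other genes within the limits of level. The second library stands out as the highest of 32X in 84.2% and as the lowest of GFC in 75.8% of the selected genes.

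The size of these differences between replicates was of the order of the fold limit in some genes. The second 32X library lay a median of 0.41 above the mean of the other two 32X libraries on the log2(RPM + 1) scale, against 0.01 for the other genes. It was at least 1.5 times above them for 34 genes (35.8%, against 1.18% of the others) and at least 2 times for 6. The median deviation of the second GFC library from the other two was -0.30, and it was at least 1.5 times below them for 24 genes (25.3%, against 0.572%). Median relative spread (CV) was 20.8% in 32X and 15.5% in GFC, against 8.22% and 5.14% among the other genes. The order of the libraries was no part of the rule, but a gene whose values spread widely can pass a fold limit through 1 library, and the part of this in the counts was not tested.

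The full order from lowest to highest was 1, 3, 2 in 32X together with 2, 3, 1 in GFC for 34 genes (35.8%). For 23 genes (24.2%) it was 3, 1, 2 together with 2, 3, 1. Among the 6115 other genes within the limits of level these orders held for 10.7% and 10.1%, and were the most common there too. A smaller set of 16 genes (16.8%, against 30.9% of those 6115) ran otherwise in GFC, with the second library the highest. It held Csa5G523090, Csa2G006170, Csa3G664560, Csa1G278500, Csa3G845490, Csa5G495940, Csa3G011620, Csa2G351650, Csa3G710200, Csa2G374630, Csa5G182730, Csa1G597690, Csa4G307350, Csa5G148780, Csa1G023030 and Csa7G431440. The 3 with the largest differences are among the 6 largest of all 95. Across the 95 genes the deviations of the second libraries of the 2 lines from their line had a Spearman correlation of -0.13, against -0.41 across the 6115 other genes within the limits of level. Both are descriptions of the sizes of the deviations across genes that share the same libraries.

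The same rule was then applied without 1 library, and the chosen genes were read in that library, which had played no part in the choice. Only the library left out is independent of the choice, since the other line's libraries it is set against were used. Chosen without the second 32X library, 60 genes had a median log2 difference of 1.21, and in that library alone it was 1.601. Of the 60, 58 (96.7%) lay at least 1 above the GFC mean there, against 3.3% of all genes within the limits of level. Chosen without the second GFC library, 76 genes had a median of 1.24, and 1.51 in that library, where 67 (88.2%) differed by at least 1, against 2.64%.

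For the first libraries the values fell instead. The choice took genes with a large difference in the libraries kept, which by itself favours a fall in the library left out. Chosen without the first 32X library, 148 genes had a median of 1.26, and 0.86 in that library, where 58 (39.2%) reached 1, against 0.918% of genes within the limits of level. Chosen without the first GFC library, 117 genes went from 1.26 to 1.06, and 63 (53.8%) reached 1, against 1.26%. The third libraries lay between, at 1.16 for both 32X (108 genes, 64.8% reaching 1, against 1.51%) and GFC (103 genes, 76.7%, against 1.4%). The library left out lay beyond all 3 libraries of the other line in 141 of the 148 genes for 32X replicate 1 (95.3%, against 31.6% of genes within the limits of level), 60 of 60 for replicate 2 (against 40.9%) and 106 of 108 for replicate 3 (against 34.4%). For GFC this held in 115 of 117 genes for replicate 1 (against 28.9%), 76 of 76 for replicate 2 (against 39.3%) and 103 of 103 for replicate 3 (against 30.5%). The side of the library left out thus held in nearly all chosen genes. The median size differed among the libraries left out, but each choice took its own set of 60 to 148 genes. Library and gene set therefore cannot be told apart in these medians.

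**Figure D4:**
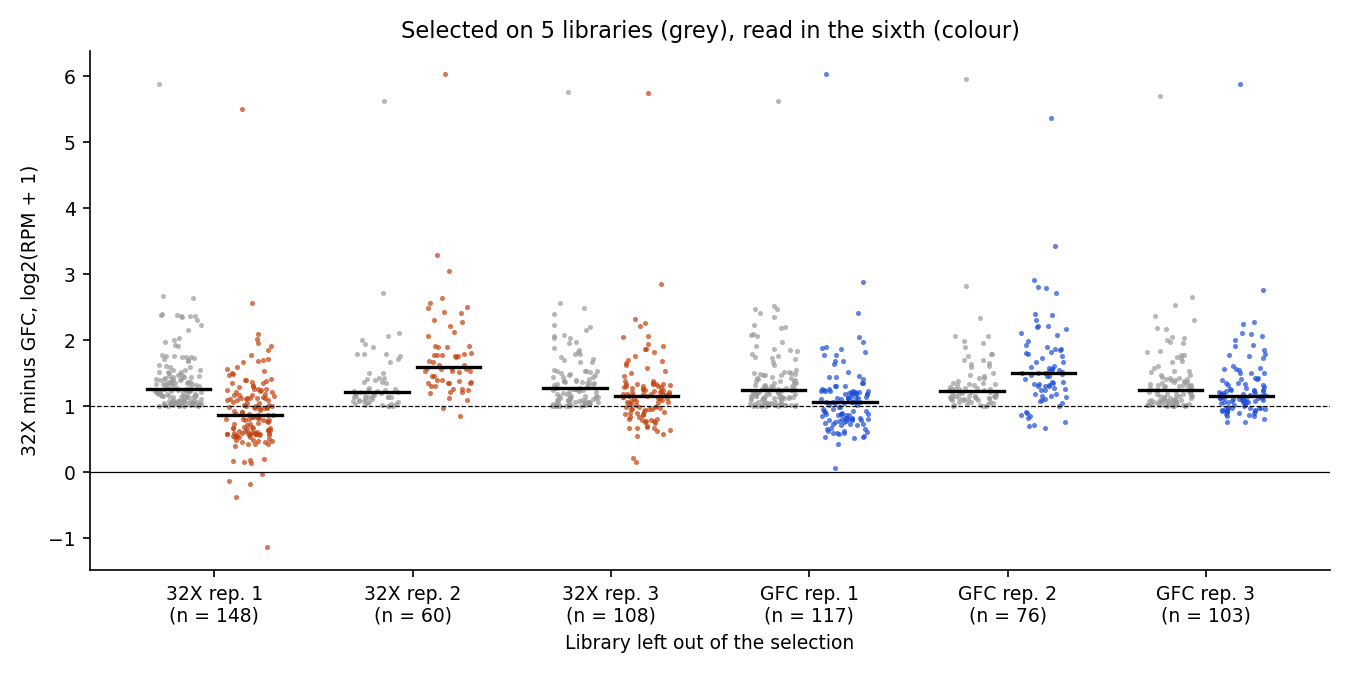
Difference 32X minus GFC on the log2(RPM + 1) scale for genes chosen by the rule on 5 libraries: grey points give the difference used for the choice and coloured points the difference with the library left out alone on its side, with black bars for medians. The medians rise from 1.21 to 1.601 in 32X replicate 2 and from 1.24 to 1.51 in GFC replicate 2, and fall from 1.26 to 0.86 in 32X replicate 1.

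The order of the libraries could be read in the same way. Among the 60 genes chosen without the second 32X library, that library was the highest of its line in 48 and the lowest in 3, against 42.0% and 38.2% of the genes within the limits of level. Among the 148 genes chosen without the first 32X library, 94 of which are among the 95, it was the lowest of its line in 114 (77.0%), against 31.9%. Among the 76 genes chosen without the second GFC library, it was the lowest in 50 (65.8%), against 52.4%. The libraries kept were chosen for lying away from the other line, which favours a place nearer to that line for the library left out. The part of this in these shares was not tested. Of the 95 genes, 49 were chosen again whichever library was left out, 25 were chosen in 5 of the 6 cases, 16 in 4, 3 in 3 and 2 in 2. The 2 genes chosen least often were Csa2G287080 and Csa2G418950, with differences of 1.003 and 1.03.

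By ID the genes were spread over all 7 chromosomes. Chromosome 1 held 16 of them, chromosome 6 held 15, chromosomes 2 and 5 held 14 each, chromosome 3 held 13, chromosome 7 held 12 and chromosome 4 held 9, with 2 on unplaced sequence. Per 100 genes within the limits of level this was 1.96 on chromosome 7, 1.83 on chromosomes 1 and 5, 1.77 on chromosome 2, 1.42 on chromosome 6, 1.16 on chromosome 4 and 0.988 on chromosome 3. On unplaced sequence it was 9.52, from 2 of only 21 genes within those limits. The median log2 difference per chromosome ran from 1.16 on chromosome 1 to 1.36 on chromosome 3.

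On chromosome 1 the genes were Csa1G023030, Csa1G039910, Csa1G042920, Csa1G044320, Csa1G065970, Csa1G168880, Csa1G183580, Csa1G278500, Csa1G420310, Csa1G420320, Csa1G542510, Csa1G568580, Csa1G596420, Csa1G597690, Csa1G696520 and Csa1G710160, and all differed by less than 2 on the log2 scale. On chromosome 2 they were Csa2G000460, Csa2G006170, Csa2G009440, Csa2G010330, Csa2G033260, Csa2G176700, Csa2G238880, Csa2G287080, Csa2G296130, Csa2G297220, Csa2G351650, Csa2G356090, Csa2G374630 and Csa2G418950. On chromosome 3 they were Csa3G002890, Csa3G011620, Csa3G027200, Csa3G027730, Csa3G033730, Csa3G033810, Csa3G134910, Csa3G194380, Csa3G198460, Csa3G238120, Csa3G664560, Csa3G710200 and Csa3G845490. On chromosome 4 they were Csa4G008790, Csa4G124910, Csa4G291370, Csa4G303160, Csa4G307350, Csa4G314390, Csa4G496760, Csa4G622770 and Csa4G638320, with 114 RPM as the highest 32X mean. On chromosome 5 they were Csa5G148780, Csa5G150450, Csa5G160210, Csa5G182730, Csa5G383850, Csa5G434550, Csa5G495940, Csa5G523090, Csa5G577350, Csa5G589940, Csa5G603910, Csa5G611100, Csa5G647490 and Csa5G647500. On chromosome 6 they were Csa6G037500, Csa6G091870, Csa6G150560, Csa6G154500, Csa6G176940, Csa6G179480, Csa6G303240, Csa6G324830, Csa6G421660, Csa6G426360, Csa6G501230, Csa6G504380, Csa6G504720, Csa6G511040 and Csa6G518000, which include 4 of the 10 largest differences. On chromosome 7 they were Csa7G037600, Csa7G046680, Csa7G056500, Csa7G067370, Csa7G074910, Csa7G222880, Csa7G284440, Csa7G420890, Csa7G429630, Csa7G431440, Csa7G432520 and Csa7G447000. The genes on unplaced sequence were CsaUNG012590 and CsaUNG028560.

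**Figure D5:**
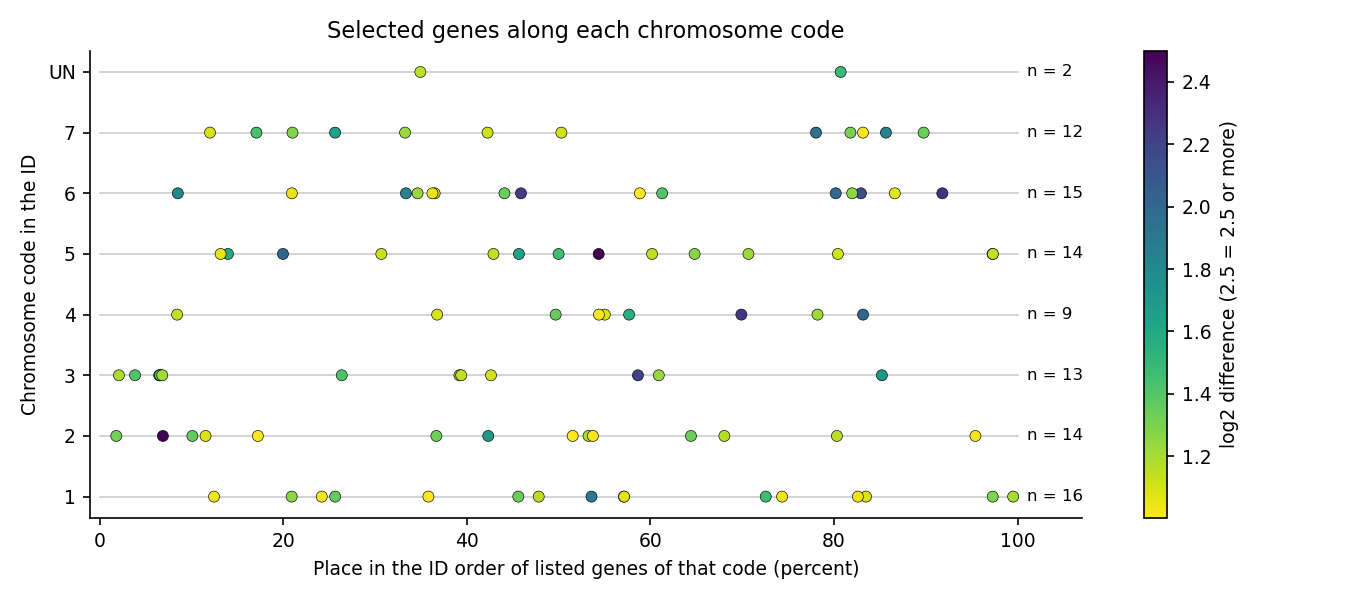
Place of each of the 95 genes in the ID order of the listed genes of its chromosome code, in percent of that order, with colour for the log2 difference. The genes are spread along the codes of all 7 chromosomes, and no code holds more than 16 of them.

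Among the selected genes, 2 pairs had adjacent IDs, meaning serial numbers 10 apart. Of the 17065 consecutive pairs among all listed genes, 11610 were 10 apart. Whether 2 pairs is more or fewer than a random draw of as many genes would give was not tested. Csa1G420310 had 105, 195 and 132 RPM in 32X and 66.3, 57.0 and 62.9 RPM in GFC. Its neighbour Csa1G420320 had 205, 389 and 249 RPM in 32X and 142, 111 and 137 RPM in GFC. The ratio of the first to the second stayed between 0.459 and 0.531 in all 6 libraries, so the pair kept nearly the same proportion while both differed between the lines and among replicates. The listed genes on either side, Csa1G418800 and Csa1G420350, had log2 differences of 0.46 ± 0.09 and 0.08 ± 0.11 (SE).

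The second pair was on chromosome 5. Csa5G647490 had 116, 140 and 107.5 RPM in 32X and 63.4, 40.8 and 60.1 RPM in GFC, and Csa5G647500 had 39.98, 49.5 and 38.1 RPM in 32X and 23.9, 15.2 and 17.5 RPM in GFC. Their log2 differences were both 1.15 ± 0.16 (SE), and their ratio ran from 2.65 to 3.43. The listed genes on either side, Csa5G647480 and Csa5G647510, differed by 0.39 ± 0.15 and 0.36 ± 0.11. Whether the genes of a pair are similar enough in sequence to share reads could not be examined here.

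Loose groups of IDs were seen as well, picked out after the positions were known. In windows of 20000 serial numbers, the highest count was on chromosome 6. There Csa6G501230, Csa6G504380, Csa6G504720, Csa6G511040 and Csa6G518000 lay among 418 listed genes, 152 of them within the limits of level. On chromosome 3, Csa3G027200, Csa3G027730, Csa3G033730 and Csa3G033810 lay among 95 listed genes, 41 of them within those limits. On chromosome 7, Csa7G420890, Csa7G429630, Csa7G431440 and Csa7G432520 lay among 171, with 62 within the limits. On chromosome 2, Csa2G000460, Csa2G006170, Csa2G009440 and Csa2G010330 lay among 247, with 114 within them. The windows hold different numbers of genes, so the counts do not rank them by density. Over the whole table, the 185 listed genes next to a selected gene, and not themselves selected, had a median log2 difference of 0.11, and 62.7% of them were higher in 32X. Among all listed genes that were not selected, 49.5% were higher in 32X. The share with a difference of at least 1 was 4.32% (8 genes) next to a selected gene and 1.66% among all that were not selected.

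With the lines exchanged, the same rule chose 19 genes higher in GFC, against 95 higher in 32X. A difference of at least 1 with no overlap toward GFC was met by 0.486% of all genes, against 2.12% toward 32X. Reads of the 19 genes made up 0.0953% ± 0.0121 of a 32X library and 0.238% ± 0.00933 of a GFC library (SD, n = 3). Among them the second library was the highest of 32X and the lowest of GFC in 3 of the 19 genes (15.8%). That share was 67.4% of the 95 and 28.5% of the 6115 other genes within the limits of level for 32X. The second library was the lowest of 32X and the highest of GFC in 5 of the 19 (26.3%), against 1 of the 95 and 18.5% of those 6115.

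One gene of each set stood next to the other. Csa5G495940 had 290.3, 328 and 321 RPM in 32X and 114, 121 and 105 RPM in GFC, a log2 difference of 1.46 ± 0.08 (SE). Csa5G495920, the listed gene next to it and 20 serial numbers away, went the other way, with 54.8, 90.9 and 68.1 RPM in 32X and 228, 247 and 241 RPM in GFC, a difference of -1.76 ± 0.15. This pair was picked out after its values were seen. In both genes the lines lay well apart, by at least 2.41 times in Csa5G495940.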

How the data were processed

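RNA from whole fruit was sequenced in 3 libraries each of 32X and GFC. The authors deposited 1 table of RPM values with a column per library, and every column sums to 1000000 over the listed genes. TopHat and HTSeq are named in the submitters' processing notes, and per the labels' protocols the library kit preserves strand. Not given in the sources used here are tool versions, build, annotation and filters.

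Selected genes, named genes and the comparisons were chosen with earlier results of these data known. Values are whole multiples of 1 read (100% within 0.001 reads in every library, where the smallest value of 32X replicate 3 stands for 2 reads). Recovered depth was 15320600 to 18089654 reads per library, 1 read was worth 0.0553 to 0.0653 RPM, and at this depth a selected gene had 5 to 29885 reads in a library.

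Standard errors came from limma 3.58.1 (R 4.3.3) on log2(RPM + 1), fitted to all 17073 genes with a variance trend and no covariate. The filter of at least 1 RPM in 3 libraries removed 0 genes. A pseudocount of 1 understates the differences of genes with few reads, most of all that of Csa5G523090. At a Benjamini-Hochberg adjusted p under 0.05, limma called 95 of the 95 genes, against 12.2% of all genes called higher in 32X. The rule used this contrast, so nothing is read from that count. edgeR 4.0.16 and DESeq2 1.42.0 on the recovered reads, other pseudocounts, filters and scalings, the replicate number as a block, other limits of the rule and leaving out each library were alternatives. The limma and edgeR code was tested on simulated data. Replicates may share plants, so errors measure the spread between these samples.

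Named are the 12 largest differences, the 6 highest 32X means, pairs with adjacent IDs, the 2 widest and 2 narrowest spreads in 32X and the genes nearest each limit. The other IDs are listed by chromosome, and genes said to be picked out afterwards fall outside this rule. No coordinates or sequences are given, because no table used here ties these IDs to a genome.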

Additional observations from a re-analysis of the deposited data

How the results depend on the processing

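The number of genes chosen by the rule (95) was 95 with TMM scaling, 92 with median-of-ratios scaling, 97 with quantile normalization, 100 with a pseudocount of 0.1 and 77 with 5. It was 146 with a 32X limit of 20 RPM and 46 with 80, by construction. Leaving out 1 library gave 60 to 148 genes, 60 without 32X replicate 2 (59 of the 95 among them) and 148 without 32X replicate 1 (94 of the 95), and the cause was not tested. For the same 95 genes the median log2 difference ran from 1.14 to 1.36 without 1 library, and all 95 stayed above 0 under the 3 scalings, both pseudocounts and without each library in turn. That direction was fixed by the choice. For genes chosen without 1 library and read in it alone the median was 0.86, 1.601 and 1.16 in 32X replicates 1 to 3 and 1.06, 1.51 and 1.16 in GFC replicates 1 to 3. Whether the numbers in the labels pair the libraries could not be settled from 3 libraries per line. Deviations of same-numbered libraries correlated at -0.04, -0.27 and -0.09 across genes. Those of libraries with different numbers ran from -0.25 (32X replicate 3 with GFC replicate 1) to 0.28 (32X replicate 3 with GFC replicate 2). With the replicate block, limma called 92 of the 95 genes and 2066 of all 17073 genes, against 3517 without it. Counts over all genes take both directions here and below, while those among the 95 were all higher in 32X. Of the 3517, 2086 were higher in 32X and 1431 in GFC, and of the 2066, 1383 and 683. Leaving out 1 library gave 89 to 94 of the 95 and 1346 to 4758 of all genes. edgeR on recovered reads called 94 of the 95 and 3494 of all genes, and DESeq2 93 and 3986. Of the 35 named genes, Csa6G091870 no longer passed the adjusted p threshold of limma with the replicate block. It also missed that threshold without 32X replicate 2 or 3 or GFC replicate 2 or 3. The other 450 of 455 values kept direction and side. Pairs of IDs at most 100 serial numbers apart numbered 3, a distance chosen after seeing the data. Errors on 3 libraries per line are wide where 1 library departs. Depth limits the size given for Csa5G523090, which has 5 to 19 reads in a GFC library and a log2 difference of 4.001 with a pseudocount of 5, 7.05 with 0.1 and 7.10 in edgeR, against 5.76 with 1.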
